A study of Mus musculus with 12 samples.

Results

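Pomc, the transcription factors that direct it in the pituitary gland (Tbx19, Pax7 and Pitx1) and the enzymes that cut its product (Pcsk1 and Pcsk2) were examined with 12 Affymetrix Mouse Gene ST arrays in hypothalamic RNA from male C57Bl/6J mice at 21 weeks of age. The genes were chosen by name, through the platform annotation of the probe sets. Of the 6 genes, 5 had a probe set that carried only their symbol, and each of the 5 passed the signal filter and was tested among 17186 genes. Pcsk2 was not analysed here. The ASP+CGP, ASP, CGP and CON groups had 3 arrays each. ASP+CGP mice were exposed both to the sweetener aspartame and to CGP 39551, a drug that competes with glutamate at NMDA receptors (NMDAR). ASP mice were exposed to aspartame alone, which began through the mother and lasted for life, at an intake of 46 mg/kg. CGP mice were exposed to CGP 39551 alone, which the dams drank at 5 mg/kg until postnatal day 28, so that no CGP 39551 was given in adulthood. CON mice received neither. All groups were offspring of dams of the same strain, fed standard chow and fasted overnight before tissue was taken. Each group was hybridized as 1 RNA pool, on 3 repeat arrays. The p-values thus describe how well repeat arrays agree within a pool, with no measure of the spread between mice, and whatever else differed between the pools cannot be told apart from the treatments.

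Pomc encodes pro-opiomelanocortin, a precursor from which adrenocorticotropic hormone (ACTH), the melanocortin peptide alpha-MSH and the opioid peptide beta-endorphin are cut. Corticotrophs of the anterior pituitary process it mainly to ACTH through the convertase encoded by Pcsk1, whereas melanotrophs of the intermediate lobe, which also use the convertase encoded by Pcsk2, cut it further to alpha-MSH. Neurons of the arcuate nucleus of the hypothalamus also make Pomc, and the melanocortin they release lowers food intake. Tbx19 (also called Tpit) is the T-box factor that both pituitary lineages need to transcribe Pomc, Pitx1 is a homeodomain factor of the whole anterior pituitary that acts with it, and Pax7 sets the melanotroph fate. Pomc itself has a single probe set on this array, so that transcripts from pituitary cells and from arcuate neurons cannot be told apart in its signal. In bulk tissue, fewer cells of a type and less RNA per cell cannot be told apart either.

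On assembly GRCm38.p6, Pomc lies at chr12:3954945-3960643, Tbx19 at chr1:165137834-165160773, Pitx1 at chr13:55825044-55836190, Pax7 at chr4:139737059-139833530 and Pcsk1 at chr13:75089420-75134861. The 250 bases upstream of the RefSeq start of Pomc (plus strand, chr12:3954695-3954944) and of Tbx19 (minus strand, chr1:165160774-165161023) are shown because these were the members whose signals differed between pools and because the product of the second acts on the first. Capitals mark E-boxes, the CANNTG motif that basic helix-loop-helix factors such as Neurod1 bind, and the TATA box (TATAAA), found on either strand.
Pomc: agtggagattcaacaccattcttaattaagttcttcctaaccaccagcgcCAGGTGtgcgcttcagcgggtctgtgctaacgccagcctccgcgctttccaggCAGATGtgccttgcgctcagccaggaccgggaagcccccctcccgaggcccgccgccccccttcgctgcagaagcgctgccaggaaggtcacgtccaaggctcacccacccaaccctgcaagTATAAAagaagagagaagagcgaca
Tbx19: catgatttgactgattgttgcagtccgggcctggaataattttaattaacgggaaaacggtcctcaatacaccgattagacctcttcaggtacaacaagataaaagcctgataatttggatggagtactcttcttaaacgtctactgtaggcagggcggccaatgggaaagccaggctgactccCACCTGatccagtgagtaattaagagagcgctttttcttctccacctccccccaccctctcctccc
The Pomc stretch held E-boxes at 200 and 147 bases before the start (CAGGTG and CAGATG) and a TATA box 25 bases before it. The Tbx19 stretch held 1 E-box at 66 bases before the start (CACCTG) and no TATA box, and a further E-box (CAACTG) began at position 8 counted from the start. Of 32851 promoter windows of 300 bases in the RefSeq table, 72.3% held an E-box and 13.6% a TATA box. Neither window matched the T-box motif TCACACC (3.98% of windows) or the Pitx motifs TAATCC (7.06%) and TAAGCC (9.48%), which says only that these letters are not in this window. Pitx motifs were found in windows of other members, which are not shown. TAATCC lay 153 bases before the start of Pcsk1, and TAAGCC lay on the opposite strand 242 bases before that of Pax7. E-boxes are short and these matches are a description of the sequence, not of a bound site.

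Pomc was the member that differed most between the pools. Its RMA signal on the log2 scale, given array by array, was 9.25, 9.20 and 9.18 in ASP+CGP, 11.74, 11.85 and 11.78 in ASP, 11.44, 11.48 and 11.50 in CGP and 10.84, 10.88 and 10.91 in CON. No 2 pools overlapped, and the order of the levels was ASP, then CGP, then CON, then ASP+CGP. The level of Pomc was thus higher than in CON in each single exposure and lower than in CON in the combined one.

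**Figure D1:**
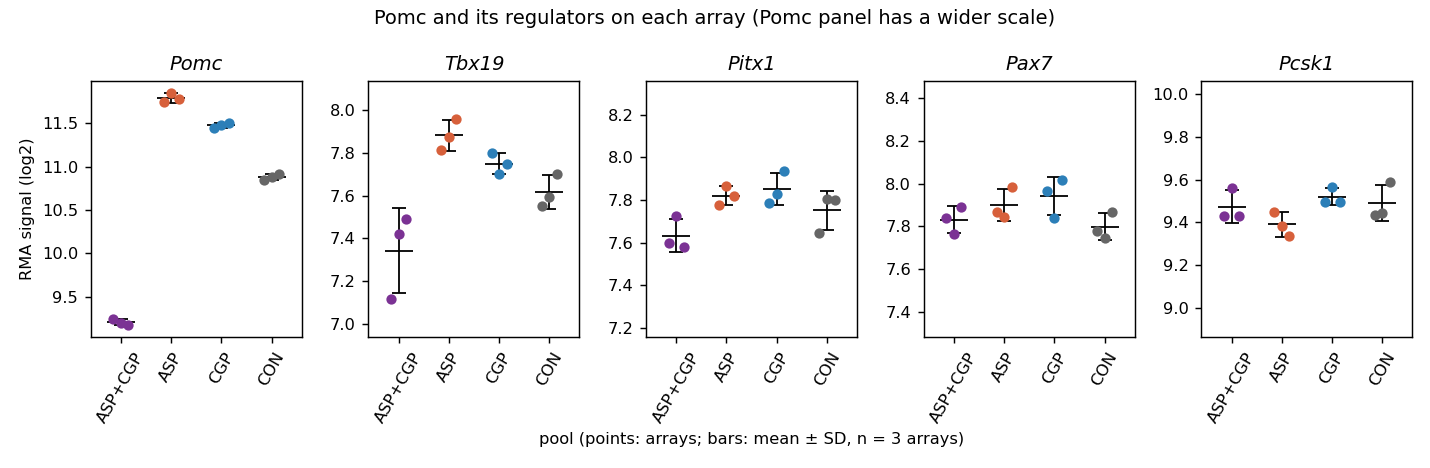
RMA signal (log2, vertical axes) of Pomc, Tbx19, Pitx1, Pax7 and Pcsk1 in the ASP+CGP, ASP, CGP and CON pools; each point is 1 array and the bars give the mean ± SD (n = 3 arrays of 1 pool). The 3 ASP+CGP arrays of Pomc sit between 9.18 and 9.25, below all others, and the panels of the other 4 genes span a narrower range than that of Pomc.

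To ask how far each pool differed, a gene was called differentially expressed (a DEG) at a Benjamini-Hochberg adjusted p under 0.05 over all genes of the comparison and a fold change over 1.4, in limma's moderated test. Pomc was upregulated 1.88-fold in ASP against CON (log2 fold change 0.91 ± 0.04, SE, adjusted p = 4.57e-09). It was upregulated 1.51-fold in CGP against CON (0.59 ± 0.04, adjusted p = 9.25e-06). In ASP+CGP mice it was downregulated 3.18-fold against CON (-1.67 ± 0.04, adjusted p = 3.12e-11). These comparisons share the 3 CON arrays and are therefore not independent of each other.

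Set against the single exposures, Pomc in ASP+CGP was 5.98-fold lower than in ASP (log2 fold change -2.58 ± 0.04, adjusted p = 1.95e-14) and 4.80-fold lower than in CGP (-2.26 ± 0.04, adjusted p = 5.40e-13). The aspartame contrast of Pomc thus had opposite signs with and without developmental NMDAR antagonism. The interaction, the aspartame effect on the CGP background minus that without CGP, was -3.17 ± 0.06 on the log2 scale (adjusted p = 3.04e-13). Between the single exposures Pomc was 1.24-fold higher in ASP than in CGP (0.32 ± 0.04, adjusted p = 0.000443), which passed the adjusted p but lay under the fold threshold.

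Tbx19, the T-box factor of Pomc-expressing pituitary cells, showed the same order of pool means over a narrower range. Its log2 signal was 7.12, 7.42 and 7.49 in ASP+CGP, 7.81, 7.87 and 7.96 in ASP, 7.80, 7.70 and 7.75 in CGP and 7.55, 7.60 and 7.70 in CON. The ASP+CGP arrays lay below all others, with the first of them lowest, and the CGP arrays overlapped the CON arrays at their lower end. Tbx19 was downregulated 1.45-fold in ASP+CGP against ASP (log2 fold change -0.54 ± 0.08, adjusted p = 0.000739). Without the first ASP+CGP array the change was -0.43 (adjusted p = 0.000816), which misses the fold threshold.

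The other differences of Tbx19 were smaller. In ASP+CGP against CGP the log2 fold change was -0.41 ± 0.08 (adjusted p = 0.0301, 1.33-fold), past the adjusted p and short of the fold threshold. Against CON it was 0.27 ± 0.08 in ASP (adjusted p = 0.0924), 0.13 ± 0.08 in CGP (adjusted p = 0.55) and -0.27 ± 0.08 in ASP+CGP (adjusted p = 0.119), and none of these passed. Between ASP and CGP it was 0.13 ± 0.08 (adjusted p = 0.46), so that no neighbours in the order of Tbx19 levels differed past the threshold. The interaction of Tbx19 was called, at -0.67 ± 0.11 on the log2 scale (adjusted p = 0.00315).

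Pitx1, the homeodomain factor shared by the lineages of the anterior pituitary, was not called in any comparison. Its log2 signal was 7.60, 7.72 and 7.58 in ASP+CGP, 7.78, 7.86 and 7.82 in ASP, 7.79, 7.83 and 7.94 in CGP and 7.65, 7.80 and 7.80 in CON. The ASP+CGP arrays lay below all ASP and CGP arrays and overlapped the CON arrays. Its log2 fold change was -0.19 ± 0.06 in ASP+CGP against ASP (adjusted p = 0.0744, 95% interval -0.31 to -0.06) and -0.22 ± 0.06 in ASP+CGP against CGP (adjusted p = 0.109, interval -0.34 to -0.09). The interaction of Pitx1 was -0.29 ± 0.08 (adjusted p = 0.0755), on the same side of 0 as those of Pomc and Tbx19 and not past the threshold.

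Pax7, the selector of the melanotroph fate, had a log2 signal of 7.84, 7.77 and 7.89 in ASP+CGP, 7.87, 7.85 and 7.99 in ASP, 7.97, 7.84 and 8.02 in CGP and 7.78, 7.75 and 7.87 in CON. Each pool overlapped the others. The largest difference was that of CGP against CON, 0.14 ± 0.06 on the log2 scale (adjusted p = 0.351, 95% interval 0.02 to 0.27). In ASP+CGP against ASP the interval of the Pax7 difference was -0.19 to 0.06, which leaves out a change of the size of that of Tbx19.

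Pcsk1, the convertase that makes ACTH from the precursor and is also used by many hypothalamic neurons, did not follow Pomc. Its log2 signal was 9.43, 9.56 and 9.43 in ASP+CGP, 9.45, 9.38 and 9.34 in ASP, 9.50, 9.57 and 9.50 in CGP and 9.44, 9.45 and 9.59 in CON. The ASP pool, which had the highest Pomc, had the lowest mean of Pcsk1, and the CGP pool had the highest. The difference of Pcsk1 was -0.10 ± 0.05 in ASP against CON (adjusted p = 0.383, 95% interval -0.22 to 0.02) and -0.02 ± 0.05 in ASP+CGP against CON (adjusted p = 0.918, interval -0.13 to 0.10). Between ASP and CGP, whose arrays did not overlap, it was -0.13 ± 0.05 (adjusted p = 0.265), and no comparison of Pcsk1 passed the adjusted p.

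**Figure D2:**
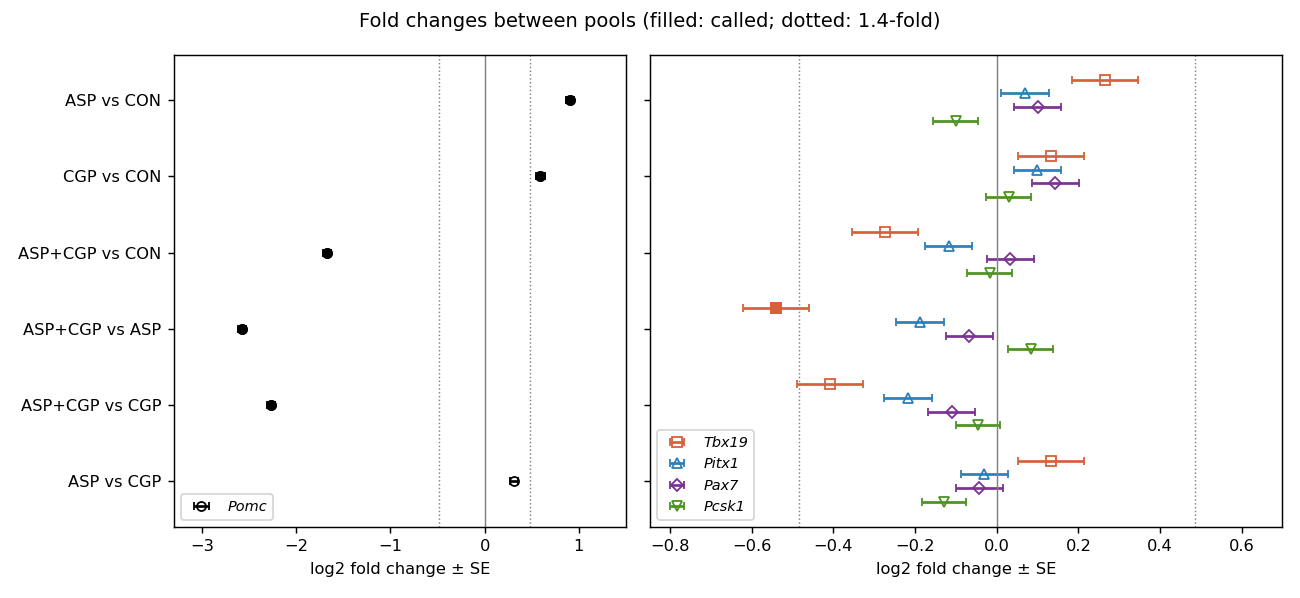
Log2 fold change ± SE (horizontal axes) of Pomc (left) and of Tbx19, Pitx1, Pax7 and Pcsk1 (right, on an expanded scale) in 6 comparisons of pools; filled symbols were called and dotted lines mark a 1.4-fold change. Pomc was called in 5 of the 6 comparisons, Tbx19 in ASP+CGP against ASP alone, and the other 3 genes in none.

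Counted over the members, 1 of 5 was called in ASP against CON, where 1.05% of all genes were called, and the same count held at the adjusted p alone (4.08% of all genes). In CGP against CON it was again 1 of 5, by either rule (0.111% and 0.628% of all genes). In ASP+CGP against CON 1 of 5 was called (0.18% of all genes), and 1 of 5 passed the adjusted p alone (1.75%). The called gene was Pomc in each of these 3 comparisons. In ASP+CGP against ASP, Pomc and Tbx19 were called, 2 of 5 (1.27% of all genes by both criteria and 6.92% by the adjusted p alone). In ASP+CGP against CGP only Pomc was called (0.163% of all genes), and 2 of 5 passed the adjusted p alone (0.978%). Between ASP and CGP no member was called, with limma, against 0.943% of all genes, and Pomc passed the adjusted p alone (3.42% of all genes). Beside that count of 0, Pomc and Pcsk1 had an unadjusted p under 0.05 (4.85e-06 and 0.0339, limma), as did 2744 of all 17186 genes. By the same rule 2907, 1997 and 2640 of all genes differed in ASP, CGP and ASP+CGP against CON. In ASP+CGP against ASP and against CGP 3624 and 2444 did. In the interaction 2 of 5 were called, Pomc and Tbx19, by either rule (1.5% and 4.01% of all genes). With so few members a single gene sets each share.

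Hormone genes of other pituitary lineages moved between the pools alongside Pomc. Gh, growth hormone of somatotrophs, had a log2 signal of 11.04, 10.97 and 11.05 in ASP+CGP, 14.08, 14.09 and 14.07 in ASP, 13.98, 13.98 and 13.93 in CGP and 13.34, 13.36 and 13.30 in CON. Prl, prolactin of lactotrophs, had 7.54, 7.24 and 8.04 in ASP+CGP, 12.51, 12.49 and 12.53 in ASP, 12.17, 12.21 and 12.26 in CGP and 10.80, 10.67 and 11.03 in CON. For both genes no pools overlapped and the order was that of Pomc. The log2 fold change against CON was -2.31, 0.75 and 0.63 for Gh and -3.22, 1.68 and 1.38 for Prl in ASP+CGP, ASP and CGP, each called. All 3 measured markers of the somatotroph and lactotroph list were called higher in ASP and in CGP against CON, and 2 of 3 were called lower in ASP+CGP. Their summed linear signal was 2506 to 2767 in ASP+CGP, 23790 to 23860 in ASP, 21130 to 21560 in CGP and 12490 to 12570 in CON. For 7 markers of gonadotrophs and thyrotrophs it was 1610 to 1973 in ASP+CGP, 9928 to 10080 in ASP, 9198 to 9391 in CGP and 4141 to 4878 in CON, with Cga, Lhb and Fshb called in all 3 comparisons against CON. Cga had the highest signal of this list in each pool and weighs most in the sum. The other 4 markers were not called against CON. In ASP their log2 fold changes were 0.46 (Tshb), 0.38 (Gnrhr), -0.20 (Trhr) and -0.01 (Foxl2). Tshb passed the adjusted p alone in ASP (0.00718, limma), whereas Trhr and Foxl2 did not. Gnrhr met the adjusted p in ASP and CGP, but it passed the signal filter only through those arrays, so this is a description. The list thus moved in part and not as a whole. The log2 fold change in ASP+CGP, ASP and CGP against CON was -2.01, 1.27 and 1.20 for Cga, -0.88, 1.57 and 1.10 for Lhb (the beta subunit of luteinizing hormone) and -0.82, 0.86 and 1.08 for Fshb (that of follicle-stimulating hormone), so that the value of Pomc in ASP+CGP (-1.67) lay between those of Cga and Lhb. Of the 5 genes of the posterior pituitary and tanycyte list, 0 were called against CON by limma or by an ordinary linear model, with 0, 0 and 1 at an unadjusted p under 0.05 in ASP, CGP and ASP+CGP. The part of the pituitary markers in the Pomc differences was not tested.

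**Figure D3:**
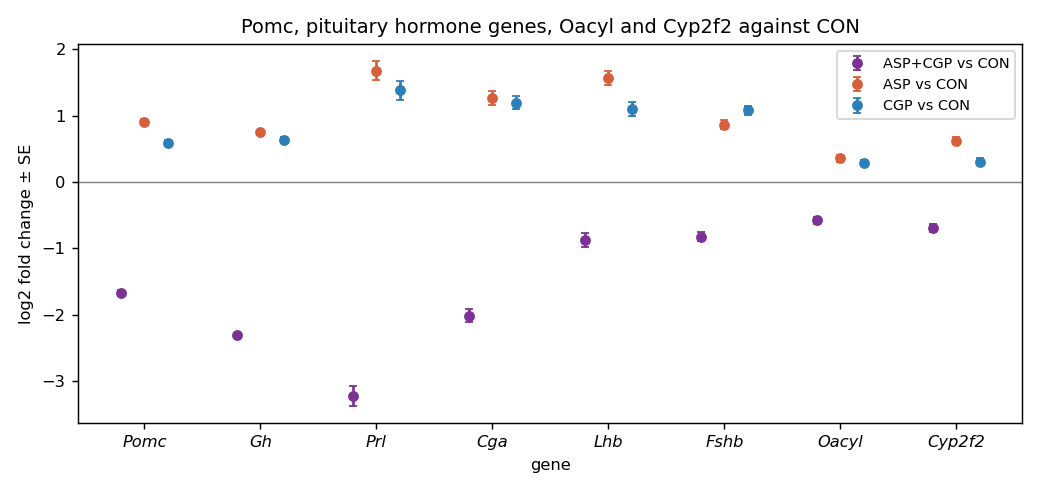
Log2 fold change ± SE (vertical axis) of Pomc, the hormone genes Gh, Prl, Cga, Lhb and Fshb, and Oacyl and Cyp2f2 (horizontal axis) in ASP+CGP, ASP and CGP, each against the same 3 CON arrays. Oacyl and Cyp2f2 were picked for their likeness to Pomc on these arrays. Each gene lies below 0 in ASP+CGP and above 0 in ASP and CGP; Pomc at -1.67 in ASP+CGP lies between Cga at -2.01 and Lhb at -0.88, with Gh at -2.31 and Prl at -3.22 farther from 0 and Fshb at -0.82 nearer to it.

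To ask whether Pomc moved by the same amount as Gh and Prl, the mean log2 signal of Gh and Prl was subtracted from that of Pomc on each array, and the pools were compared with a two-sided exact permutation test. With 3 arrays against 3 the smallest p is 0.1, so the design cannot pass 0.05, and each of the 6 comparisons gave this value, also after adjustment over the 6. Relative to Gh and Prl, Pomc was 1.10 higher on the log2 scale in ASP+CGP than in CON, 1.399 higher than in ASP and 1.51 higher than in CGP. Relative to the same pair it was -0.30 in ASP against CON and -0.42 in CGP against CON, and 0.11 in ASP against CGP. With Gh alone as the comparator the ASP difference was 0.16, on the other side of 0. Array signals can understate folds both near background, as for Prl in ASP+CGP, and at the bright end, where Gh lay in ASP and CGP, so these are differences of array signal. Lhb and Fshb, which fell less than Pomc did in ASP+CGP, were not part of this comparison.

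The genes whose signal followed Pomc most closely over the 12 arrays were Prl (Pearson r = 0.993), Gh (0.992), Oacyl (0.991), Cga (0.988), Cyp2f2 (0.984), Tmc4 (0.956), Esr1 (0.947) and Lcn2 (0.947). Cga encodes the shared alpha subunit of the glycoprotein hormones, Esr1 the estrogen receptor alpha and Lcn2 the secreted protein lipocalin. The 12 points come from 4 pools and share the scale set by normalization, so these values describe the arrays and carry no p. Emc2 (-0.969), Unc13c (-0.958) and Mctp1 (-0.950) had the lowest values. Among the members, Tbx19 stood at rank 42 of the tested genes other than Pomc (r = 0.887) and Pitx1 at rank 225 (0.791), whereas Pax7 (0.404) and Pcsk1 (-0.168) lay far from Pomc. Without the ASP+CGP arrays r was 0.885 for Tbx19 but 0.515 for Pitx1 and 0.350 for Lcn2. Of the 8 genes most like Pomc, 3 stayed among the 8 without those arrays, and 1 each by Spearman's rho or by the 4 pool means.

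Oacyl, an acyltransferase-like membrane protein, had a log2 signal of 7.30 ± 0.02 in ASP+CGP, 8.24 ± 0.08 in ASP, 8.16 ± 0.06 in CGP and 7.88 ± 0.05 in CON (SD, n = 3 arrays). Cyp2f2, a cytochrome P450 of airway cells, had 7.99 ± 0.12 in ASP+CGP, 9.30 ± 0.03 in ASP, 8.99 ± 0.02 in CGP and 8.68 ± 0.04 in CON. Both genes were picked for their high r with Pomc over these same arrays, so that a pattern like that of Pomc follows from the choice. Their values are a description and no separate test. In ASP+CGP against CON both met the criteria for a lower call (-0.58 ± 0.05 and -0.69 ± 0.05). In ASP and CGP against CON the values were 0.36 and 0.29 for Oacyl and 0.63 and 0.31 for Cyp2f2, all past the adjusted p, of which only the Cyp2f2 value in ASP also passed the fold threshold.

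The ASP pool also differed from the others in its adrenal markers. All 9 markers of the adrenal cortex and all 4 measured markers of the adrenal medulla were called higher in ASP against CON, and 0 were in CGP or ASP+CGP by limma or by an ordinary linear model (0 and 1 cortex markers, and 1 and 0 medulla markers, at an unadjusted p under 0.05). With a signal of 6 asked of all arrays, which keeps out genes that are bright only in ASP, 8 cortex and 2 medulla markers were called in ASP. The summed linear signal of the cortex markers was 1537 to 1583 in ASP+CGP, 19710 to 20080 in ASP, 1602 to 1640 in CGP and 1545 to 1622 in CON. That of the medulla markers was 1499 to 1760 in ASP+CGP, 3279 to 3463 in ASP, 1606 to 1612 in CGP and 1519 to 1680 in CON. Pomc was called higher in CGP, where neither list had a called gene. The markers of neurons, glia and pancreatic islets had 0 called genes in the comparisons against CON, by limma or by an ordinary linear model, and at most 1 gene of a list had an unadjusted p under 0.05. Of 10 hypothalamic marker genes all were measured, none lay under a log2 signal of 6 throughout a pool, and their summed signal was 20390 to 21450 in ASP+CGP, 20630 to 21070 in ASP, 21250 to 21670 in CGP and 23520 to 25560 in CON. Avp, the vasopressin gene, was called lower in ASP (-0.50 ± 0.04) and in ASP+CGP (-0.55 ± 0.04) against CON, and 0 of these markers were called in CGP, by limma or by an ordinary linear model. The call of Avp in ASP was lost without the first ASP array or with each array centred on its median. At the adjusted p alone 5 markers were lower in ASP, 3 in CGP and 4 in ASP+CGP, among them Avp, Oxt (oxytocin) and Trh (thyrotropin-releasing hormone) in each pool. In either direction 6, 8 and 8 had an unadjusted p under 0.05 (limma), beside 2907, 1997 and 2640 of all 17186 genes. Among the 8 in CGP, Tac2 was higher (0.18). The part of these markers in the Pomc differences was not tested.

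Among the genes that process prohormones and build secretory granules, all 20 of the list were measured and 0 were called in any of the 6 pairwise comparisons, by limma or by an ordinary linear model. At an unadjusted p under 0.05 there were 5, 0 and 3 in ASP, CGP and ASP+CGP against CON, 6 and 5 in ASP+CGP against ASP and against CGP, and 5 in ASP against CGP. Of all 17186 genes, 2907, 1997 and 2640, then 3624 and 2444, and 2744 met that rule in the same comparisons. The median log2 fold change of the list was -0.00 in ASP, 0.03 in CGP and -0.03 in ASP+CGP against CON, beside -0.01, 0.01 and -0.00 over all genes. At the adjusted p alone 4 were higher in ASP against CON: Furin, a convertase of the secretory pathway (0.39 ± 0.07), the granins Chga (0.37 ± 0.04) and Chgb (0.35 ± 0.06), and the convertase gene Pcsk5 (0.48 ± 0.06, 1.39-fold). Pcsk5 lay so close to the fold threshold that 1 gene of the list was called in this comparison without the third CON array, without the second ASP array, after a further quantile normalization or with each array centred on its median. The list also had 1 called gene in ASP+CGP against ASP without the second ASP array. None passed the adjusted p in CGP or ASP+CGP against CON. In the interaction Pcsk5 was called (-0.52 ± 0.08, adjusted p = 0.00142), and leaving out 1 array gave 0 to 3 called genes of the list. Cpe, the carboxypeptidase that trims the peptides cut by convertases, had a log2 fold change of 0.05 ± 0.04 in ASP, 0.08 ± 0.04 in CGP and 0.08 ± 0.04 in ASP+CGP. For Pcsk1n, whose product inhibits the Pcsk1 convertase, the differences were 0.10 ± 0.10, 0.11 ± 0.10 and -0.07 ± 0.10. Granins are also made by adrenal chromaffin cells, and the part of the adrenal markers in the ASP values was not tested.

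**Figure D4:**
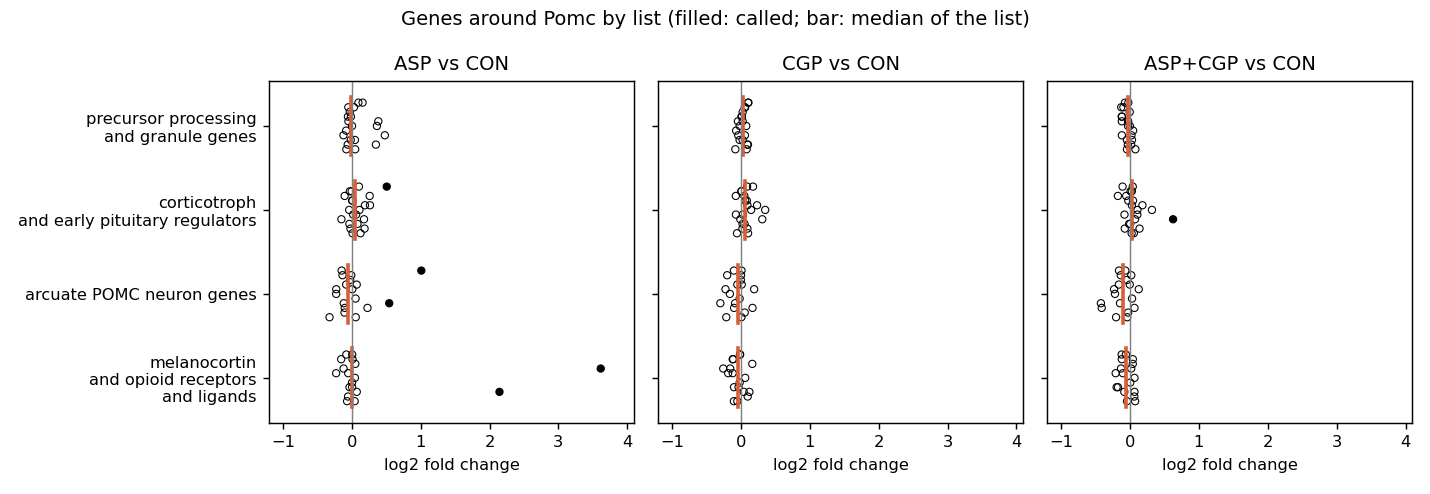
Log2 fold change (horizontal axis) of each measured gene of 4 lists in ASP, CGP and ASP+CGP against the same CON arrays; filled points were called and the coloured bar is the median of the list. Medians lie near 0 in all panels, and the 2 points farthest to the right in ASP are Mc2r (3.61) and Mrap (2.14).

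Among regulators of corticotrophs and of the early pituitary, 22 of 27 genes were measured and 1 was called in ASP, 0 in CGP and 1 in ASP+CGP against CON. The median log2 fold change of the list was 0.04, 0.06 and 0.03. In CGP 5 genes of the list had an unadjusted p under 0.05 (limma), beside 1997 of all 17186 genes. Nr4a1, the orphan nuclear receptor Nur77 that relays corticotropin-releasing hormone to the Pomc promoter, had a log2 signal of 10.19, 10.15 and 9.93 in ASP+CGP, 10.58, 10.77 and 10.77 in ASP, 10.37, 10.38 and 10.38 in CGP and 10.24, 10.31 and 10.04 in CON. It was called higher in ASP against CON (0.51 ± 0.08, adjusted p = 0.00136) and lower in ASP+CGP against ASP (-0.61 ± 0.08, adjusted p = 0.000188). The first of these calls was lost without the third CON array, without the second ASP array or without the third ASP array, each of which left 0 called genes in the list, and the part of the adrenal markers in the ASP value was not tested. Neurod1, a basic helix-loop-helix factor of corticotrophs and neurons, was 7.74, 7.92 and 7.88 in ASP+CGP, 7.35, 7.50 and 7.34 in ASP, 7.51, 7.51 and 7.57 in CGP and 7.39, 7.16 and 7.11 in CON. It was called higher in ASP+CGP against CON (0.63 ± 0.07, adjusted p = 0.000391), the comparison in which Pomc was called lower. Otx2, a homeobox gene of the anterior brain and pituitary, passed the adjusted p without reaching the fold threshold in CGP (0.35) and ASP+CGP (0.32) against CON. The receptors that trigger ACTH release had log2 fold changes of -0.00 ± 0.04, 0.01 ± 0.04 and 0.03 ± 0.04 (Crhr1) and -0.04 ± 0.07, 0.15 ± 0.07 and 0.11 ± 0.07 (Avpr1b) in ASP, CGP and ASP+CGP, none past the threshold. Lhx3, a LIM homeobox gene of the pituitary, was at 0.13 ± 0.04 in ASP (adjusted p = 0.12).

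Pomc is also a gene of the arcuate nucleus, and 18 of 20 genes that mark or regulate arcuate Pomc neurons and their neighbours were measured. Against CON, 2 were called in ASP, 0 in CGP and 0 in ASP+CGP, with list medians of -0.05, -0.03 and -0.10. At an unadjusted p under 0.05 (limma) 7 of 18 differed in CGP and 10 of 18 in ASP+CGP, beside 1997 and 2640 of all 17186 genes. An ordinary linear model also called 0 in both, and without the third ASP+CGP array 1 was called in ASP+CGP. Cartpt, the peptide co-released by many arcuate Pomc neurons, was 10.29, 10.36 and 10.49 in ASP+CGP, 10.25, 10.28 and 10.24 in ASP, 10.35, 10.40 and 10.35 in CGP and 10.52, 10.49 and 10.73 in CON. Its log2 fold change was -0.32 ± 0.06 in ASP (adjusted p = 0.00852, below the fold threshold), -0.21 ± 0.06 in CGP (adjusted p = 0.199) and -0.20 ± 0.06 in ASP+CGP (adjusted p = 0.142). In ASP and CGP the values of Cartpt and Pomc thus lay on opposite sides of 0. Bsx, a homeobox gene of arcuate neurons, passed the adjusted p at -0.23 in ASP, -0.22 in CGP and -0.23 in ASP+CGP, all below the fold threshold. Isl1, which specifies arcuate Pomc neurons, had -0.08 ± 0.05, -0.05 ± 0.05 and -0.16 ± 0.05, none past the adjusted p.

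The called genes of this list were Tbx3, a T-box factor of arcuate neurons, and Npy, the orexigenic peptide of the neighbouring Agrp neurons. Tbx3 was 8.73, 8.69 and 8.48 in ASP+CGP, 9.69, 9.84 and 9.87 in ASP, 8.65, 8.70 and 8.72 in CGP and 8.81, 8.80 and 8.76 in CON (ASP against CON 1.01 ± 0.06, adjusted p = 1.33e-07). Npy was 10.94, 10.94 and 11.26 in ASP+CGP, 12.04, 12.01 and 11.98 in ASP, 11.15, 11.19 and 11.16 in CGP and 11.36, 11.39 and 11.65 in CON (0.54 ± 0.09, adjusted p = 0.00146). The ASP arrays lay above all others for both genes and, unlike Pomc, neither was called in CGP. Npy in ASP+CGP against CON was at -0.42 ± 0.09 (adjusted p = 0.0232), below the fold threshold. In ASP+CGP against ASP, Tbx3 (-1.17 ± 0.06), Npy (-0.97 ± 0.09) and Anxa2 (-0.64 ± 0.09) were called lower. Both Tbx3 and Npy are expressed outside the brain as well, and the part of the adrenal markers that moved in the same pool was not tested.

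Receptors and ligands of the melanocortin and opioid systems were measured for 18 of 19 genes, with list medians of 0.00 in ASP, -0.04 in CGP and -0.05 in ASP+CGP against CON. Mc2r, the ACTH receptor of the adrenal cortex, was 4.95, 4.98 and 5.15 in ASP+CGP, 8.48, 8.78 and 9.04 in ASP, 5.19, 4.80 and 5.01 in CGP and 5.19, 5.07 and 5.21 in CON. Its accessory protein gene Mrap was 7.18, 7.26 and 7.36 in ASP+CGP, 9.50, 9.58 and 9.40 in ASP, 7.46, 7.36 and 7.36 in CGP and 7.33, 7.32 and 7.39 in CON. Mrap was called in ASP against CON, at 2.14 ± 0.06 (adjusted p = 5.42e-12). Mc2r, at 3.61, met both criteria as well, but it passed the signal filter only through the ASP arrays, so that its call is a description and not a test, and with a signal of 6 asked of all arrays Mrap alone was called. They were the only called genes of the list against CON in any pool. At an unadjusted p under 0.05 (limma) 4 genes of the list differed in CGP and 4 in ASP+CGP, beside 1997 and 2640 of all 17186 genes. An ordinary linear model called 0 of the list in both. Mc2r was under a log2 signal of 6 in the pools other than ASP, where RMA can understate the fold. The part of the adrenal cortex markers, all 9 of which moved in the same pool, was not tested for these genes.

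The melanocortin receptors of the brain through which arcuate Pomc acts were not called. Mc3r had a log2 fold change of -0.03 ± 0.05 in ASP, -0.03 ± 0.05 in CGP and -0.17 ± 0.05 in ASP+CGP (adjusted p = 0.116), and Mc4r had -0.08 ± 0.05, -0.01 ± 0.05 and -0.12 ± 0.05 (adjusted p = 0.277). Crh, the hypothalamic hormone that drives ACTH release, had 0.01 ± 0.07, -0.01 ± 0.07 and -0.06 ± 0.07, with a lowest adjusted p of 0.75. Penk, the enkephalin precursor, passed the adjusted p at -0.26 in CGP against CON (adjusted p = 0.0114), and Crhbp, which binds corticotropin-releasing hormone, at -0.23 in ASP and -0.21 in ASP+CGP, all below the fold threshold.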

How the data were processed

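Per the labels and methods, RNA of hypothalamus blocks was pooled within each group and hybridized to 3 arrays per group. The deposited values are log2 RMA signals, made by the authors in Partek by background correction, quantile normalization and median polish, which understates folds near background. Groups and replicate numbers came from the sample titles. Of 29149 probe sets, 19019 had 1 gene symbol in the annotation given, 1197 had several and 8933 had none listed. Genes were named only from probe sets with 1 symbol, kept where 3 or more arrays reached a signal of 6 (18810). Genes with several were represented by their brightest probe set on average, which left 17186 genes, 17121 of them in the RefSeq table of GRCm38.p6.

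Comparisons used limma 3.58.1 in R 4.3.3 on all 12 arrays, with a mean per group, 8 residual and 5.43 prior degrees of freedom, and Benjamini-Hochberg adjustment over all genes within a comparison. A gene was called at an adjusted p under 0.05 and over 1.4-fold. Values after ± are SE for fold changes and SD for signals. The fits were tested on simulated data. The number of arrays limits the precision.

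The members and the gene lists were chosen with earlier results of these data known. Named were the members, up to 4 called genes per list and comparison, Gh and Prl, and the 8 genes most and 3 least like Pomc; the other genes named from the lists were chosen after their values were seen, for their role or for passing the adjusted p alone. Promoters were taken from the RefSeq table of GRCm38.p6 and searched on both strands. Arrays of adrenal glands and Pcsk2 were not analysed here. Alternatives covered the filter, probe set rule, normalization, test, adjustment, fold threshold, replicate block and each array left out; a fit that left out the third array of both CON and ASP+CGP was chosen after seeing the data.

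Median signals of the arrays were 8.28 to 8.34. Across the 17186 genes tested, which do not count as independent replicates, arrays of the same pool correlated at 0.995 to 0.999 and arrays of different pools at 0.987 to 0.998. The third array of ASP+CGP and that of CON deviated most from their pool mean (SD 0.0996 and 0.0903, against 0.0490 to 0.0701 on the others).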

Additional observations from a re-analysis of the deposited data

Results flagged for a closer look

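The effect of aspartame differed with and without developmental CGP for several of the genes described, by the interaction in limma's test, with the effect on the CGP background (ASP+CGP against CGP) taken first and that without CGP (ASP against CON) subtracted. For Pomc the difference was -3.17 ± 0.06 (SE) on the log2 scale and for Tbx19 it was -0.67 ± 0.11. Gh and Prl differed by -3.69 ± 0.06 and -6.28 ± 0.20 (adjusted p = 2.44e-14 and 7.86e-11). Among the arcuate genes, Tbx3 differed by -1.07 ± 0.09, Npy by -0.67 ± 0.12 and Anxa2 by -0.54 ± 0.13 (adjusted p = 4.25e-06, 0.00528 and 0.0352). Nr4a1 differed by -0.79 ± 0.11 and Pcsk5 by -0.52 ± 0.08. Mrap differed by -2.27 ± 0.08 (adjusted p = 2.31e-10). Mc2r differed by -3.59, given as a description because it passed the signal filter only through the ASP arrays and lay under a signal of 6 on all others. In Pomc, Gh and Prl both terms had opposite signs and were called, whereas in Mc2r and Mrap the term on the CGP background was 0.03 and -0.12 and was not called. The interaction was also called for Cga (-4.48), Lhb (-3.54), Fshb (-2.76), Tshb (-0.98) and Ghrhr (-1.56). All 9 adrenal cortex and 4 measured adrenal medulla markers met the criteria too, of which Hsd3b1 passed the signal filter only through the ASP arrays. Gnrhr (-0.78) passed that filter only through the ASP and CGP arrays, so the values of Hsd3b1 and Gnrhr are descriptions. Oacyl (-1.22) and Cyp2f2 (-1.63) also met the criteria. They were picked for their likeness to Pomc on these same arrays, so their values are no separate test.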

How the results depend on the processing

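Over 25 settings the log2 fold change of Pomc ranged from 0.88 to 0.93 in ASP against CON and from 0.58 to 0.61 in CGP against CON. In ASP+CGP against CON it ranged from -1.69 to -1.64, and in the interaction from -3.20 to -3.14. Only the normalizations and leaving out arrays of a compared pool could change these values, because Pomc has a single probe set. The other settings leave its fold change as it is by construction. The Pomc calls against CON in ASP and CGP (0.91 and 0.59) were lost only at a fold change over 2, and with no fold threshold Pomc was called in ASP against CGP (0.32). At a fold change over 2 the members called were 0 in ASP and 0 in CGP against CON, 1 in ASP+CGP against ASP and 1 in the interaction, and Tbx19 was lost in the last 2. With no fold threshold 2 members were called in ASP+CGP against CGP, where Tbx19 joined Pomc, and 1 in ASP against CGP. Leaving out 1 array gave 1 to 2 members in ASP+CGP against ASP, with 1 where the first ASP+CGP array was left out, and no other count of members moved. Relative to Gh alone, Pomc in ASP against CON reversed to 0.16. Of the 8 genes most like Pomc, 1 was kept by Spearman's rho, 1 by pool means and 3 without the ASP+CGP arrays.

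With no fold threshold 702, 108, 300, 1189, 168, 587 and 690 genes were called in ASP, CGP and ASP+CGP against CON, ASP+CGP against ASP and against CGP, ASP against CGP and the interaction, beside 180, 19, 31, 219, 28, 162 and 257 in the reported fit and 72, 5, 5, 74, 8, 63 and 86 at a fold change over 2. Across genes, deviations of same-numbered arrays correlated at -0.106 to 0.170 for the first, -0.039 to 0.256 for the second and -0.061 to 0.541 for the third arrays. The labels do not say whether the numbers mark a shared batch, so an effect shared by the third arrays remains possible. Each pool holds every replicate number once, so a replicate block cannot change a fold change and acts only on the spread. With the block, the adjusted p of Pomc in ASP against CON was 6.24e-08 (limma, 0.91). Then 1, 1, 1, 2, 1, 0 and 2 members were called, the same counts as without it. Differences that were not called could turn sign, those of Pcsk1 in ASP+CGP against CON in 6 settings. Array signal, pooled RNA and 3 repeats per pool set the limit: differences such as those of Pax7, under 1.4-fold and close to the spread of repeat arrays, were not detectable here as calls.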
